A study of Mus musculus with 12 samples.

Results

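Liver RNA from 4 of the 12 arrays of the series is described, the 4 arrays of day 7 that were hybridised on 1 slide. The control siRNA array and the G0s2 siRNA array form the siRNA arm, and the ATRA array and the ATRA+DEN array form the ATRA arm. Arrays were placed by their titles. Of 34743 genes on the array, 18519 were kept, each with a signal called above its local background by the scanner software on 2 or more of the 4. A level is the log2 intensity minus the 75th percentile of its array, so a level of 0 is that percentile, and a difference of 1 is 2-fold. A gene is called separated when both siRNA arrays lie above, or both below, the ATRA and ATRA+DEN arrays. The gap is the distance between the nearest arrays of the arms.

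All mice were wild-type ICR males, an outbred stock, bought at 5 weeks of age and adapted for 1 week. ATRA (all-trans retinoic acid, the acid form of vitamin A that acts on genes) was dissolved at 30 mg/L in drinking water, about 150 µg per day. DEN (diethylnitrosamine, a carcinogen that liver enzymes turn into a DNA-alkylating agent) was given at 80 mg/L, about 400 µg per day. G0s2 siRNA or a scrambled control siRNA, short double-stranded RNA that guides cleavage of a matching transcript, was given into a vein, 1.6 nmol in a lipid carrier. By the protocol this took place on the day before DEN, while the labels of both siRNA arrays name siRNA alone, so whether these mice drank DEN is not stated. No array of the 4 came from an injected mouse on ATRA or from an untreated mouse. ATRA and the injection are therefore mixed in the comparison, and their parts cannot be told apart. Each group is 1 array, and the labels do not say whether it holds 1 mouse or a pool. The spread within an arm contains the G0s2 difference in one and the DEN difference in the other, so the arms are pairs of unlike treatments and not replicates. The vehicle and DEN arrays of day 7 lie on another slide and are given beside the 4 as levels. The arms also occupy neighbouring positions of the slide, with ATRA+DEN and ATRA at 1 and 2 and the siRNA arrays at 3 and 4.

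The treatment characteristic disagrees with the title for 3 arrays of day 7. It gives ATRA plus DEN for the array titled ATRA, DEN for the array titled ATRA+DEN, and ATRA for the array titled DEN. The 4 arrays compared stay the same either way, but the arm called ATRA here would then hold DEN and ATRA plus DEN. Levels of Cyp26a1, a retinoic acid target, and Cdkn1a, a p53 target, follow the titles, with 7.10 and 2.84 on the array titled ATRA, 4.34 and 6.62 on ATRA+DEN, and 1.35 and 6.83 on DEN. All 28 hepatocyte markers were well above background on the 4 arrays, and their summed linear level lay between 17510 and 20990. The share of probes with a signal well above background ran from 41.0% to 46.2%, and no probe was saturated. Across the genes kept, Pearson's r was 0.985 within both arms and 0.967 to 0.976 between arrays of different arms. The ATRA array correlated more with the vehicle array of the other slide, at 0.987, than with either siRNA array of its own slide. These r values are across genes, which are not independent replicates.

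Liver cells make cholesterol from acetyl-CoA through the mevalonate pathway, and the transcription factor SREBP2 switches the whole pathway on when cell membranes are short of sterol. Retinoic acid binds nuclear receptors that switch on its own breakdown enzymes, chief among them Cyp26a1. Metallothioneins are small metal-binding proteins that zinc and glucocorticoids induce, and p53 is the transcription factor that DNA damage activates. Promoter stretches of 4 genes of the first 3 groups are shown because these groups are known for response elements in such stretches. The stretches run from 200 bases before to 30 after the RefSeq gene start (GRCm38.p6, 5′ to 3′ on the gene's strand), and capitals mark a motif found by letter search on both strands.
Cyp26a1, chr19:37697608-37697837, plus strand: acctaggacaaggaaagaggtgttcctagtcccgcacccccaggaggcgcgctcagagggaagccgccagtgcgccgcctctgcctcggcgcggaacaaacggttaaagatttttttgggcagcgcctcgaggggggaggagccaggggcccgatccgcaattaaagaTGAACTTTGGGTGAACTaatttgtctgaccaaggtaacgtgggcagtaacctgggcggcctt
Cyp51, chr5:4104668-4104897, minus strand: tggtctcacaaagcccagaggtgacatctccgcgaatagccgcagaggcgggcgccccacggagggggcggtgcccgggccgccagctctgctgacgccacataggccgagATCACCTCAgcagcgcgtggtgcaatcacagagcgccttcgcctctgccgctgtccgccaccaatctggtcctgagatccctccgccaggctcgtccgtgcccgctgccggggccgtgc
Hmgcs1, chr13:119690151-119690380, plus strand: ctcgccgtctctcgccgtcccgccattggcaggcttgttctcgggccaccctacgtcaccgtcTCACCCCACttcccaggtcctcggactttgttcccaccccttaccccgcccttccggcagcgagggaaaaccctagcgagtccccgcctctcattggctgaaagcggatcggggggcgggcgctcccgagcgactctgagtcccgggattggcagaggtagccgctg
Mt1, chr8:94178889-94179118, plus strand: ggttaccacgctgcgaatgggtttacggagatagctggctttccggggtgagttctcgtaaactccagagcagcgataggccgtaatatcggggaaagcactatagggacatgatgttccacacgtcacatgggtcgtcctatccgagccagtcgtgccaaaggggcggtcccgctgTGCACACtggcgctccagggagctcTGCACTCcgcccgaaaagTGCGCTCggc

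The capitals in Cyp26a1 are the retinoic acid receptor's direct repeat, 2 copies of a 6-base site with 5 free bases between them, found on the other strand. Only 1 fixed spelling of the 6-base site was searched, the one present in both copies in Cyp26a1. The repeat in that spelling occurred in 8 of 32851 RefSeq promoter windows of 300 bases (0.024%). Cyp26a1 was its 1 carrier among the 19 retinoid list members with a window. Repeats with another spelling of the site were not searched, so whether other members hold one was not tested. Capitals in Cyp51 and Hmgcs1 mark a sterol response element, searched as ATCACNNCA or TCACNCCAC, which 3.75% of windows held. Of 18 cholesterol synthesis genes with a window, 4 held it (Cyp51, Hmgcs1, Msmo1 and Srebf2), and 16 of the 18 held the CCAAT box, against 37.4% of all windows. In Mt1 the capitals mark the core of the metal response element, searched as TGCACNC or TGCGCNC, at 3 places, and 25.7% of windows held at least 1. A match is a description of letters and not a measured binding site.

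Cholesterol synthesis genes, retinoic acid breakdown genes and a set of mostly unnamed genes of distal chromosome 2 stood lower in the siRNA arm than in the ATRA arm. Globins, metallothioneins and several hormone- and fasting-responsive liver enzymes stood higher. Of the 18519 genes, 5415 (29.2%) were separated with the siRNA arm higher and 5082 (27.4%) with it lower, 56.7% in all. A gap of at least 2-fold was present in 234 genes (1.26%) with the siRNA arm higher and in 369 (1.99%) with it lower, 3.26% in all. Of these, 40 and 120 were well above background in 1 arm alone, and 64 and 168 are predicted genes or unnamed transcripts. By limma with Benjamini-Hochberg adjustment, 9 genes (0.0486%) were higher and 46 (0.248%) lower at an adjusted p under 0.05, and 4421 genes (23.9%) had an unadjusted p under 0.05. Leaving out any 1 of the 4 arrays left 0 or 1 gene past the threshold, and quantile normalization and the authors' deposited table left 0, so each call is given with its levels. At the edge of the 2-fold gap, Cyp3a16 (6.49 on ATRA+DEN, 7.49 on control siRNA) lay just inside and Lurap1l (3.22 and 4.22) just outside in the higher direction. In the lower one, Fdft1 (4.07 on ATRA, 3.07 on G0s2 siRNA) lay just inside and Mmd2 (-0.26 on ATRA+DEN, -1.26 on control siRNA) just outside.

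Within the arms, the G0s2 siRNA array differed from the control siRNA array by 2-fold or more in 1073 genes (5.79%), and the ATRA+DEN array from the ATRA array in 939 (5.07%). The arm means differed that much in 1678 genes (9.06%). The vehicle and DEN arrays of the other slide took no part in choosing genes. Of the 234 genes with a 2-fold gap upward, the vehicle array was nearer the ATRA arm in 213 (91%), and both the vehicle and the DEN array were in 184 (78.6%). Of the 369 downward, the counts were 317 (85.9%) and 275 (74.5%). Over all separated genes the vehicle array was nearer the ATRA arm in 77.3% of those higher and 74.1% of those lower, and both were in 65.5% and 54.7%. The side of the ATRA arm was thus the more frequent one for separated genes of any size.

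Cholesterol synthesis genes were lower on both siRNA arrays along nearly the whole pathway. All 26 members were well above background on the 4 arrays, 24 were separated downward and none upward, against 27.4% and 29.2% of all genes. A gap of at least 2-fold was present in 20, and 9 fell by the test, among them Sqle, Mvd, Cyp51, Fdps, Aacs, Hmgcs1, Idi1 and Nsdhl. Their median difference, siRNA minus ATRA arm, was -1.95, beside 0.02 over all genes.

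Sqle, squalene epoxidase, which makes the first oxygenated sterol precursor (probe at mm9 chr15:59162688-59162747), stood at -0.02 on the control siRNA array and 0.78 on the G0s2 siRNA array, against 4.84 on ATRA and 5.15 on ATRA+DEN. Vehicle and DEN lay between the arms at 3.14 and 3.64. The difference was -4.62 (SE 0.32, adjusted p = 0.049), a 24.5-fold lower mean. For Mvd, which decarboxylates mevalonate diphosphate, levels were -0.72 and -0.45 in the siRNA arm against 3.37 and 3.34 in the ATRA arm, and it fell by 3.94 (SE 0.18, adjusted p = 0.040). Cyp51, the lanosterol demethylase whose promoter is printed above, was at -2.12 and -1.77 against 1.55 and 1.57. Vehicle (0.49) and DEN (0.34) again lay between. Fdps, which makes farnesyl diphosphate, was at 3.88 and 4.11 against 7.00 and 7.16, and Hmgcs1, the HMG-CoA synthase, at 4.23 and 3.95 against 7.17 and 6.99. Idi1, the isomerase of the same branch, was at 2.82 and 2.78 against 5.64 and 5.52. In each of these 6 genes the arms were at least 2.70 apart on the log2 scale, while the arrays within an arm differed by 0.80 or less.

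Regulators of the pathway shared the direction with smaller differences. Insig1, which holds SREBP back when sterol is plentiful, was at 0.82 and 0.83 in the siRNA arm against 2.86 and 3.41 in the ATRA arm. Srebf2, the gene of SREBP2, was at 0.07 and 0.01 against 0.84 and 0.62. Both were separated, and neither passed the test. Acat2, at the entry of the pathway, overlapped between the arms.

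Both siRNA arrays lay below both the vehicle and the DEN array in 23 of the 26 members, and both arrays of the ATRA arm lay above both in 20. The median difference from vehicle was -1.32 for the siRNA arm and 0.52 for the ATRA arm. On day 2, where ATRA and ATRA+DEN arrays share a slide with vehicle and DEN, the same members were lower with ATRA, with a median of -0.82, and 13 were separated downward and none upward (background 21.2% and 17.2%). That median differed between its arrays, with -1.21 against vehicle for ATRA+DEN and -0.39 for ATRA. Sqle was at -0.24 on the day-2 ATRA+DEN array and between 2.92 and 4.90 on the other 5. The siRNA minus ATRA difference of day 2 had a median of 0.74, with 15 members separated upward and none downward (background 32.8% and 21.8%, 54.6% in all). Its arms lie on different slides, so arm and slide cannot be told apart there. The downward separation held for 23 to 25 members under the 6 scaling, filter and probe alternatives, while between 0 and 20 members passed.

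**Figure D1:**
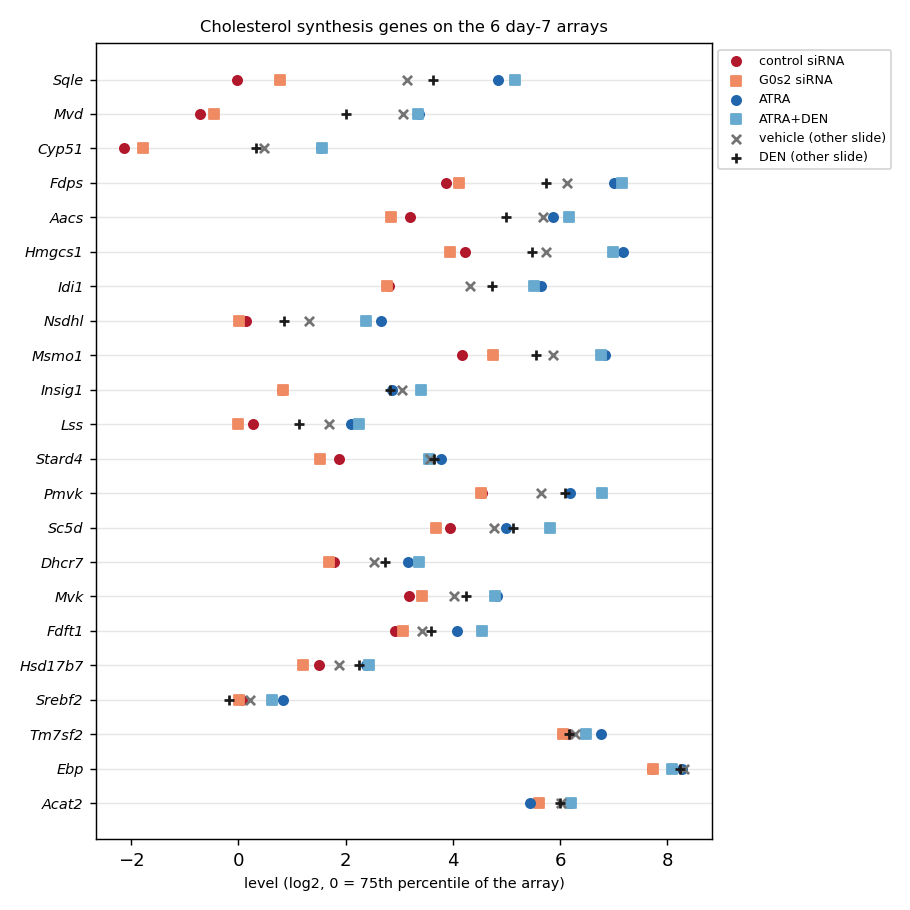
Levels (log2, relative to the 75th percentile of the array) of 22 cholesterol synthesis genes on the 6 arrays of day 7, sorted by the difference between the arms. The siRNA arrays (red and orange) lie to the left of the ATRA and ATRA+DEN arrays (blue) in 21 genes, and the vehicle and DEN arrays of the other slide (grey cross and black plus) lie between them or near the ATRA arm in most.

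Fatty acid synthesis genes, a branch that SREBP1 controls, leaned the same way. Of 29 members kept, 16 were separated downward (background 27.4%) and 5 upward, with a median of -0.58 (-0.24 with the mean over all probes of a gene), and none passed. Fasn, the fatty acid synthase, was at 0.02 and -0.31 in the siRNA arm, against 2.12 on ATRA and 2.90 on ATRA+DEN. Elovl6, an elongase of its product, was at 2.72 and 2.26 against 5.05 and 4.67. Lpin1, a phosphatidate phosphatase that fasting and glucocorticoids induce, went the other way, at 4.00 and 4.26 against 0.64 and 1.72. Thrsp, a lipogenic protein of thyroid hormone and carbohydrate response, was at 6.07 and 6.35 against 7.62 and 7.61.

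Retinoic acid breakdown and storage genes were lower in the siRNA arm, and the day-2 arrays showed most of the same genes higher with ATRA. Cyp26a1 (probe at mm9 chr19:37775566-37775625) stood at 0.92 on control siRNA and 1.55 on G0s2 siRNA, against 7.10 on ATRA and 4.34 on ATRA+DEN. Vehicle was at 2.38 and DEN at 1.35, near the siRNA arm. The difference of -4.49 (SE 0.95) did not pass (adjusted p = 0.11), and the ATRA and ATRA+DEN arrays were themselves 2.76 apart. Cyp26b1, its paralog, was at 0.31 and 2.47 against 5.51 and 3.39, and Lrat, which esterifies retinol for storage, at -0.11 and 0.12 against 2.46 and 1.51. Rarb, a retinoic acid receptor and target gene, was at 0.05 and 0.53 against 2.26 and 0.74. Another probe of Rarb differed between the arms by only -0.08, against -1.21 for the probe used. For Cyp26a1, Cyp26b1 and Rarb the ATRA array lay highest of the 4 and the ATRA+DEN array next.

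At day 2 the ATRA minus no-ATRA difference was 5.37 for Cyp26a1, 4.98 for Cyp26b1, 2.08 for Lrat and 1.28 for Rarb, and none passed. Tgm2, a transglutaminase and known retinoic acid target, was at 5.05 and 5.02 in the day-7 siRNA arm against 6.46 and 6.54, with an ATRA difference of 0.50 at day 2. Rara, the main receptor gene, and Rdh10, which oxidises retinol, were the 2 members separated upward. Of 19 list members kept, 12 were separated downward, with a median of -0.64 (-0.39 without the ATRA array), and none passed. Across all genes, 91 (0.491%) had a 2-fold gap with ATRA higher at day 2 and 21 (0.113%) with ATRA lower. Of the 91, 44 (48.4%) were separated with the siRNA arm lower at day 7 and 16 (17.6%) with it higher, beside 27.4% and 29.2% of all genes, and 13 (14.3%) had a 2-fold gap downward. Of the 369 genes with a 2-fold gap downward at day 7, those 13 are 3.52%. For ATRA on that day limma called 0 genes, with 1203 (6.5%) at an unadjusted p under 0.05.

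**Figure D2:**
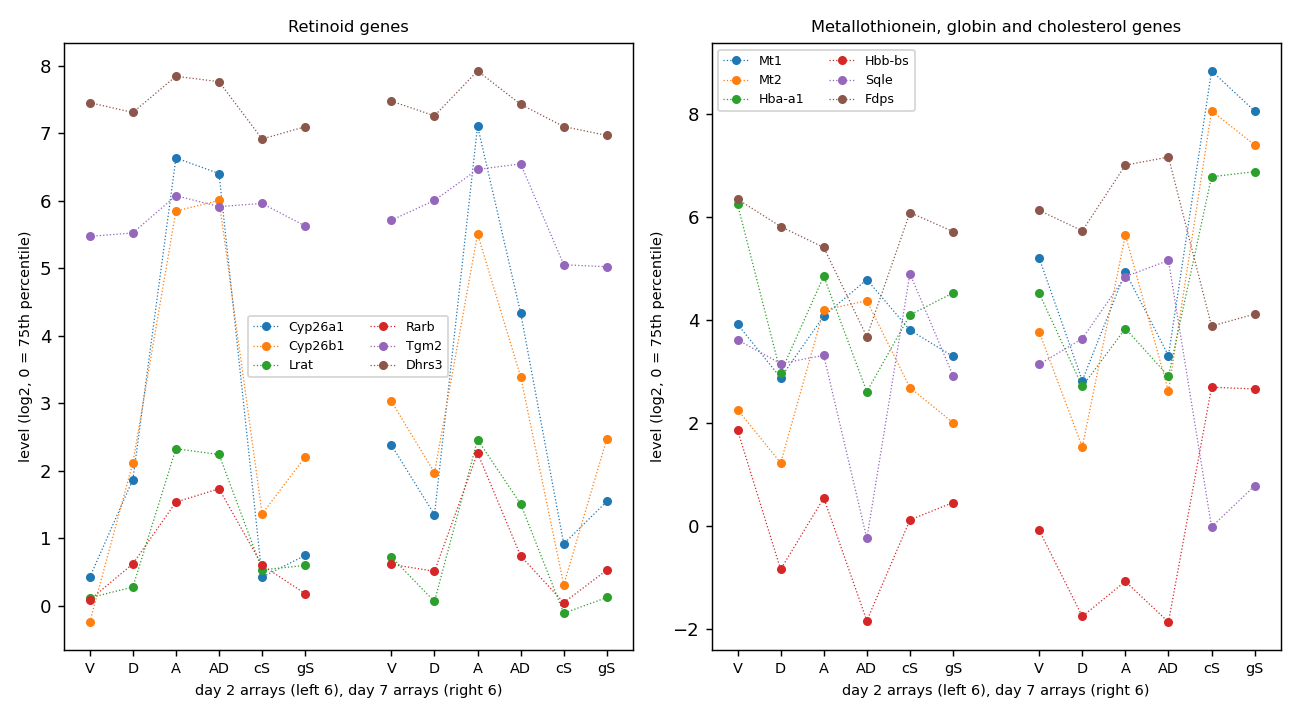
Levels of 6 retinoid genes (left) and of 2 metallothioneins, 2 globins and 2 cholesterol synthesis genes (right) on all 12 arrays, where V is vehicle, D DEN, A ATRA, AD ATRA+DEN, cS control siRNA and gS G0s2 siRNA, and dotted lines join the points of 1 gene. Cyp26a1 is highest on the ATRA arrays of both days, and Mt1 and Mt2 on the siRNA arrays of day 7.

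G0s2 is an inhibitor of the triglyceride lipase ATGL and the target of the siRNA. Its probe (mm9 chr1:195098925-195098984, minus strand) covers the start of the coding sequence, and the probe of Cyp26a1 lies within its coding sequence.
G0s2 probe: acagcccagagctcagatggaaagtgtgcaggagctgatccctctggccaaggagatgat
Cyp26a1 probe: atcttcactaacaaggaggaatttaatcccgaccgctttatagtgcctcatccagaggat

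G0s2 was at 3.45 on control siRNA, 2.26 on G0s2 siRNA, 4.22 on ATRA and 2.83 on ATRA+DEN, with 3.93 in vehicle and 3.39 in DEN. The G0s2 siRNA array was the lowest of the 6, and the arms overlapped. ATRA+DEN also lay below ATRA, where no siRNA was given, so with 1 array per group these levels cannot check the labels. The difference of the arms was -0.67 (SE 0.62, adjusted p = 0.56), and it turned to 0.02 without the ATRA array. Whether the siRNA sequence overlaps the probe was not analysed here.

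Raet1e, whose product is seen by natural killer cells through NKG2D, was lower in the siRNA arm at 1.09 and 1.45, against 5.15 on ATRA and 1.80 on ATRA+DEN, and its ATRA difference at day 2 was 4.45. Raet1c, a near-identical relative whose signal may be shared within the family, was not well above background on either siRNA array (-4.15 and -4.43), and was at 0.13 on ATRA and -0.43 on ATRA+DEN. It was kept through the ATRA arm alone, so its limma call gives no support of its own. In the siRNA arm it was at least 8.56-fold lower. That bound sets the mean of the bright arm against the lowest signal that counts as well above background on each dim array. Of the 17 NKG2D ligand and MHC class I genes kept, 8 were separated downward and 4 upward (background 27.4% and 29.2%). Their median of -0.16 turned to 0.089 with no filter on dim probes and to 0.046 with the mean over all probes of a gene.

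Many genes of distal chromosome 2 stood lower on both siRNA arrays of day 7 than on the other 10 arrays. It was noticed from the positions of the genes that passed, so the window, with features kept from chr2:174171933-178222067 of mm9, was chosen after the values were seen and has no test of its own. Of the 46 genes that fell, 14 have their probe there. The window was chosen from these calls, so their number is no support for it. Some of the 14 were kept through the ATRA arm alone. Of 61 features kept in the window, 48 were separated downward and 2 upward (background 27.4% and 29.2%). A 2-fold gap downward was present in 37 (background 1.99%), against 26 of 1303 on the rest of chromosome 2. Of the 37, 23 were well above background on all 4 arrays. Others were near background in the siRNA arm, with levels down to -5.70, and some of these were kept through the ATRA arm alone. The window is known for a large family of KRAB zinc finger genes, proteins that bind DNA and recruit repressors. Copies of this family are near-identical, so the probes may share signal, and 34 of the 37 are predicted genes or unnamed transcripts.

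Zfp931 was at -0.18 on control siRNA and 0.02 on G0s2 siRNA, against 2.39 on ATRA, 2.17 on ATRA+DEN, 2.27 on vehicle and 1.96 on DEN. Its 6 levels of day 2 lay between 2.20 and 3.21. Zfp967 was at 0.26 and 0.64 in the siRNA arm, and the other 4 arrays of day 7 lay between 2.62 and 3.32. It fell by 2.71 (SE 0.22, adjusted p = 0.049). The median level of the 37 features was -0.96 on control siRNA and -0.46 on G0s2 siRNA at day 7, and between 0.77 and 1.86 on the other 10 arrays. At day 2 the siRNA arrays stood at 1.86 and 0.87, in the range of the other 4 arrays of that day or above it. These medians do not hold for every feature, and some were as low on a day-2 array as on the day-7 siRNA arrays. An unnamed transcript was at -3.36 on G0s2 siRNA and -2.62 on vehicle of day 2. Its levels in the day-7 siRNA arm were -2.62 and -2.94. The 37 were chosen by their gap on the 4 arrays compared, so their low medians in the siRNA arm follow from that choice. The day-2 arrays and the vehicle and DEN arrays of day 7 took no part in it. On the same arrays the 37 stayed separated downward under quantile normalization and in the authors' deposited table. Under normexp background correction 36 did. These are rescalings of the arrays that chose the features and not an independent test. ICR mice are outbred, and the part of differences between animals in this block was not tested.

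**Figure D3:**
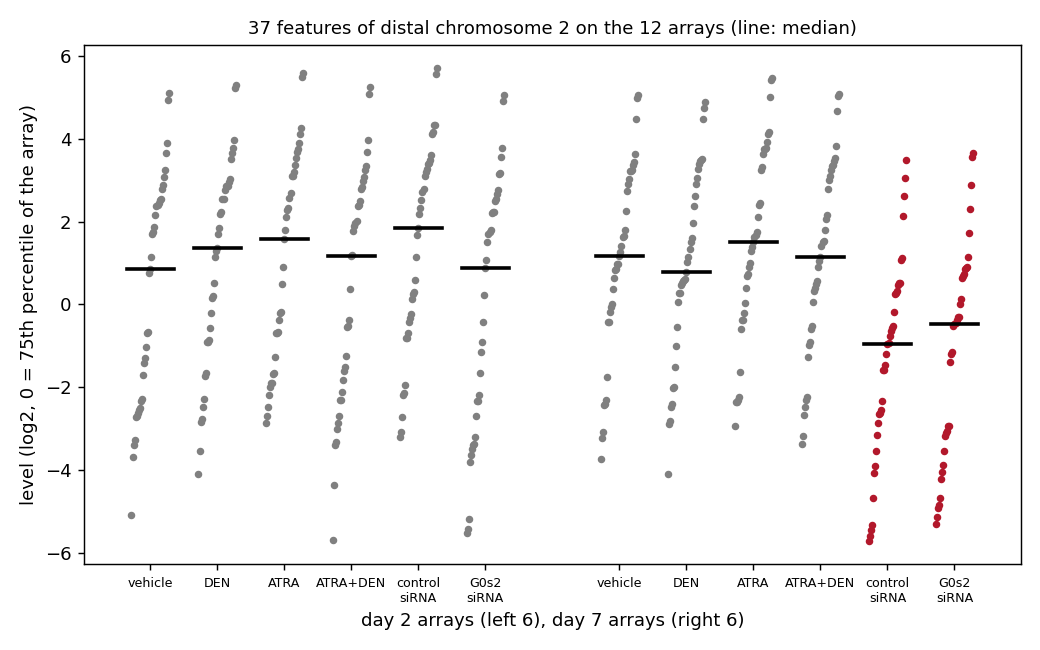
Levels of the 37 features of distal chromosome 2 with a 2-fold gap between the arms, sorted within each of the 12 arrays, with the median as a black line. The medians of the day-7 siRNA arrays (red points) are -0.96 and -0.46, and those of the other 10 arrays (grey points) lie between 0.77 and 1.86.

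Some other genes that fell had high and low levels over the 12 arrays that arrays of like treatment did not share. Abhd1, an alpha/beta hydrolase gene, was at -1.36 and -1.34 in the siRNA arm against 2.16 and 2.39 in the ATRA arm. It was also high on vehicle of day 7 (2.35) and on G0s2 siRNA of day 2 (2.08), and lay between -1.45 and -0.63 on the other 6 arrays. Nrg2, an ErbB receptor ligand, was at -1.05 and -0.92 in the ATRA arm and at 0.59 on control siRNA of day 2. It was at or below -3.80 on every other array. Nrg2 was not well above background on either siRNA array of day 7 and was kept through the ATRA arm alone. By the bound described for Raet1c it was at least 4.80-fold lower in the siRNA arm. Igsf23 was at 2.02 and 1.74 in the ATRA arm and at -2.04 and -2.85 in the siRNA arm, while vehicle and DEN of day 7 were at -3.53 and -3.83. At day 2 it was at 0.33 on vehicle, 0.09 on DEN and -0.85 on ATRA+DEN, and at -5.84 and -5.31 on the siRNA arrays. Raet1c was near its level of the day-7 ATRA arm on 1 other array, ATRA+DEN of day 2, at -0.04. In these 4 genes the ATRA arm of day 7 was the high one, and the ATRA array of day 2 was low. It stood at -1.31 for Abhd1, -5.56 for Nrg2, -5.56 for Igsf23 and -5.28 for Raet1c.

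Globins were higher on both siRNA arrays. Hbb-bs, an adult beta globin, was at 2.69 on control siRNA and 2.66 on G0s2 siRNA, against -1.07 on ATRA and -1.86 on ATRA+DEN, and rose by 4.15 (SE 0.30, adjusted p = 0.049). Hba-a1, an alpha globin, was at 6.78 and 6.88 against 3.83 and 2.91, and Hba-a2 at 8.37 and 8.40 against 5.85 and 5.06. The vehicle array lay between the arms for Hbb-bs (-0.08), Hba-a1 (4.51) and Hba-a2 (6.62), and the DEN array (-1.75, 2.71 and 5.14) lay near the ATRA arm. Globin genes are near-identical copies, so their signals may be shared. Among the 10 red cell genes kept, 6 were separated upward and 1 downward (background 29.2% and 27.4%), 5 globins had a 2-fold gap upward, and Hbb-bs alone passed. Alas2, the heme synthesis enzyme of red cells, lay within the range of the ATRA arm at 3.05 and 3.83. Klf1, an erythroid transcription factor, was separated upward at 1.05 and 0.50 against -0.01 and -1.13. Slc4a1, the red cell anion exchanger, overlapped, and Ahsp and Gata1 were well above background on none of the 4 arrays.

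The summed linear red cell level was 524.3 and 567.9 in the siRNA arm, 93.46 on ATRA and 141.6 on ATRA+DEN. Over the other 8 arrays it lay between 65.18 and 608.6, the latter on vehicle of day 2. The part of blood in the liver piece was not tested.

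Metallothioneins were also higher on both siRNA arrays. Mt1 (probe at mm9 chr8:96704165-96704224) was at 8.83 on control siRNA and 8.05 on G0s2 siRNA, against 4.93 on ATRA and 3.31 on ATRA+DEN, with vehicle at 5.20 and DEN at 2.82. Mt2 was at 8.06 and 7.40 against 5.65 and 2.62, with vehicle at 3.77 and DEN at 1.53. Both siRNA arrays lay above all 4 other arrays of day 7, and ATRA+DEN lay below ATRA as DEN lay below vehicle. The differences were 4.33 (SE 0.61, adjusted p = 0.081) and 3.59 (SE 1.04, adjusted p = 0.15). Of the 11 metallothionein and zinc genes kept, 6 were separated upward and 3 downward (background 29.2% and 27.4%). Slc30a1, a zinc exporter that the same metal sensor induces, was at 2.41 and 2.49 against 1.92 and 2.03. At day 2 the siRNA arrays lay below the ATRA arrays for both, by 0.88 for Mt1 and by 1.94 for Mt2.

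Genes of the glucocorticoid and fasting response were mostly higher in the siRNA arm. Of 19 glucocorticoid response genes kept, 14 were separated upward and 1 downward (background 29.2% and 27.4%), with a median of 0.52, and none passed. Fkbp5, a co-chaperone that the glucocorticoid receptor induces, was at 5.16 and 5.82 against 3.60 and 3.67. Zbtb16, a zinc finger protein induced in the same way, was at 3.87 and 3.95 against 2.48 and 2.68. Of 26 gluconeogenesis and fasting genes, 16 were separated upward and 3 downward, with a median of 0.41, and none passed. Sds, the serine dehydratase of fasting liver, was at 6.40 and 6.14 against 5.07 and 4.63, whereas Sik1, a kinase of the cAMP response, was lower at -0.71 and -0.85 against 0.33 and 0.90. Mt1 and Mt2 are also members of the glucocorticoid list.

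Of 26 urea cycle and amino acid genes, 14 were separated upward and 3 downward (background 29.2% and 27.4%), and 1, Tdo2, passed. Tdo2, tryptophan dioxygenase, an enzyme that glucocorticoids induce in hepatocytes, was at 6.83 and 6.99 in the siRNA arm against 4.30 on both ATRA and ATRA+DEN, with vehicle at 4.84 and DEN at 4.05. It rose by 2.61 (SE 0.16, adjusted p = 0.042). Outside the list, Cdo1, the cysteine dioxygenase that clears excess cysteine, was at 7.79 and 7.91 against 5.70 and 5.87 and rose by 2.06 (SE 0.17, adjusted p = 0.049). Also outside it, Upp2, a liver uridine phosphorylase, was at 4.74 and 4.76 against 2.80 and 2.73 and rose by 1.99. In all 3 genes the vehicle and DEN arrays lay closer to the ATRA arm. Arg1, the urea-forming arginase of the list, was at 8.77 and 8.74 against 7.96 and 7.82.

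Cd207, the C-type lectin langerin, also rose, from -0.85 on ATRA and -0.80 on ATRA+DEN to 2.48 and 2.18 in the siRNA arm (difference 3.16, SE 0.19, adjusted p = 0.040). Over the other 8 arrays it lay between -1.51 and 0.80. Scara5, a ferritin receptor, was at 2.36 and 2.57 against 0.14 and -0.67. Another probe of Scara5 differed between the arms by only 0.35, against 2.73 for the probe used. Chac1, an enzyme that degrades glutathione and marks amino acid stress, was at 2.44 and 3.07 against -1.10 and -0.37. Of 26 ER stress genes, 13 were separated downward and 4 upward (background 27.4% and 29.2%), Chac1 among the latter. Sdf2l1 and Creld2, chaperone cofactors of the ER, lay lower in the siRNA arm at 2.80 and 3.20 against 5.11 and 4.22, and at 4.59 and 5.09 against 7.51 and 6.09.

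Of 25 bile acid genes, 9 were separated upward and 2 downward (background 29.2% and 27.4%), and none passed. Cyp8b1, the sterol 12-alpha-hydroxylase that sets the cholic acid share of bile acids, was at 3.88 and 3.43 against 1.42 and 0.89, with vehicle at 2.62 and DEN at 1.25. Hsd17b6, a steroid-oxidising enzyme, was at 5.10 and 5.05 against 2.64 and 3.02, and Sult1d1, a sulfotransferase, at 4.90 and 5.02 against 1.89 and 2.64. Of 29 drug metabolism genes of the receptors CAR and PXR, 19 were separated upward and none downward (background 29.2% and 27.4%), with a median of 0.59, and none passed. Cyp3a59, a P450 of the PXR-responsive family, was at 7.93 and 7.80 against 6.56 and 6.78. Members of this P450 family are close in sequence, so their signals may be shared.

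Among genes known to be higher in female liver, Cyp2b9, a P450, was well above background only in the siRNA arm, at 1.27 and -1.66, and was at least 8.09-fold higher there, a bound of 22.3-fold from the control siRNA array alone and 2.93-fold from the G0s2 siRNA array alone. Sult1e1, the estrogen sulfotransferase, was at -1.63 and -0.68 there and not well above background in the ATRA arm, and was at least 4.43-fold higher, or 3.19-fold and 6.16-fold from the control siRNA and the G0s2 siRNA array alone. These bounds by array were added after seeing the data. Neither passed the test. Prlr, the prolactin receptor, went the other way at 0.91 and 0.23 against 3.74 and 3.22. Another probe of Prlr differed between the arms by only -0.16, against -2.91 for the probe used. The list held 5 separated upward and 3 downward of 14 (background 29.2% and 27.4%), and its median of 0.58 turned negative without the control siRNA array (-0.14), without the ATRA array (-0.09) and among genes above background on all 4 arrays (-0.22).

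Heat shock chaperones were lower in the siRNA arm by small amounts. Of 19 members, 14 were separated downward (background 27.4%) and 1 upward, with a median of -0.54, and none passed. Hsph1, a co-chaperone of Hsp70, was at 3.23 and 3.27 against 4.79 and 4.69, and Stip1, which links Hsp70 to Hsp90, at 2.65 and 2.69 against 3.95 and 3.76. Vehicle was at 5.21 and 4.10, above all 4 arrays in both genes. Hspa1a was the 1 member separated upward, at -0.79 and -1.01 against -1.86 and -2.01. On day 2 the heat shock list had a median of 0.70, with 15 members separated upward and none downward (32.8% and 21.8%), across 2 slides.

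**Figure D4:**
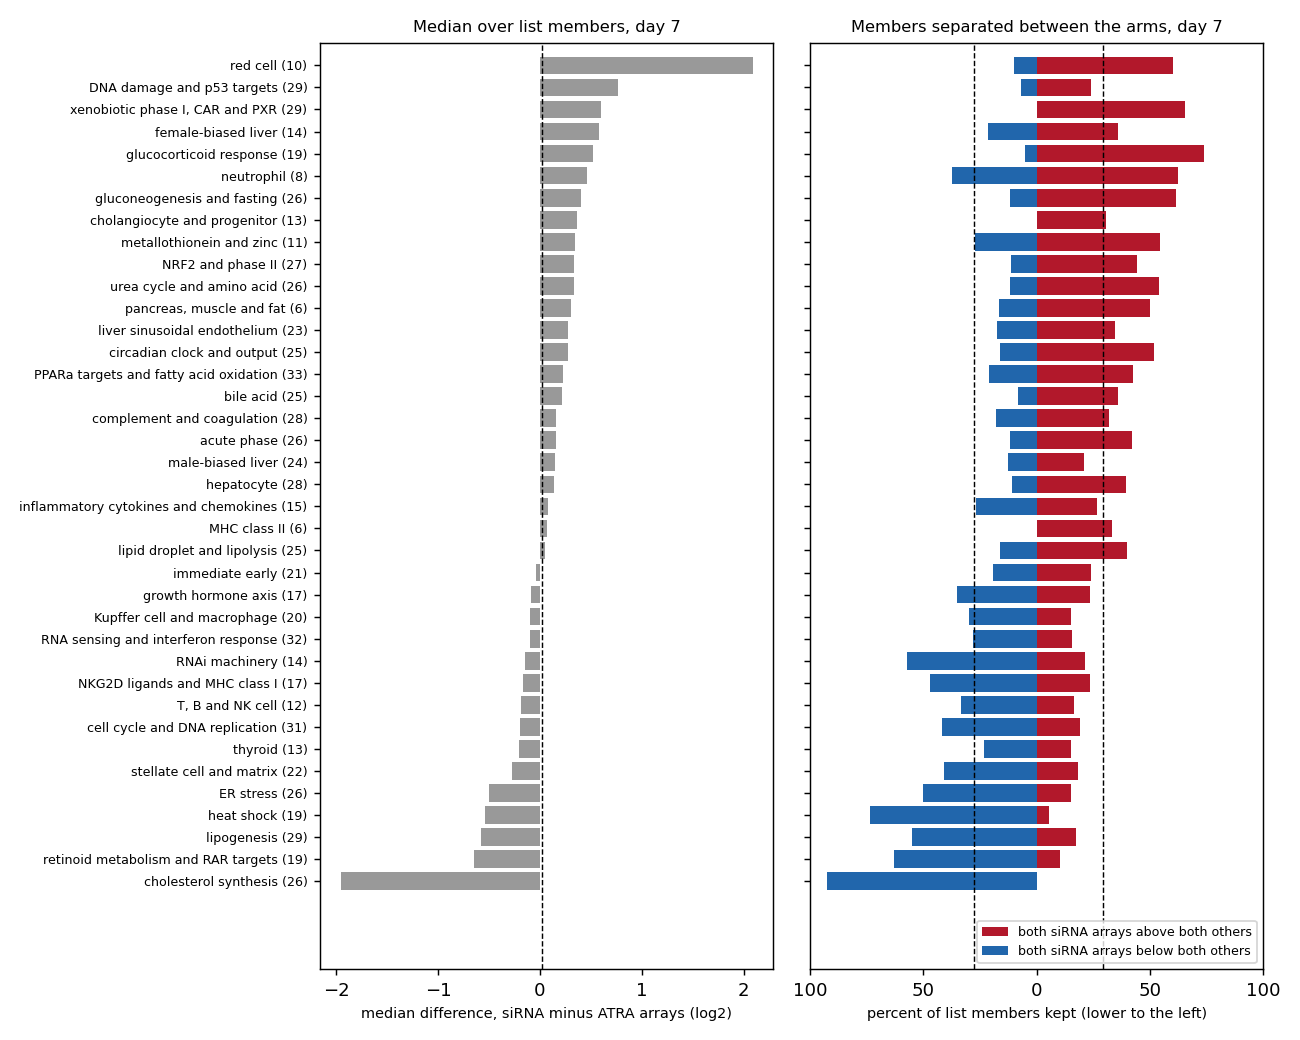
Median difference between the arms (left, log2) and percent of members separated upward (red) or downward (blue, drawn to the left) for the 38 gene lists, with the number of members kept in parentheses. Dashed lines are the values over all 18519 genes, 0.02, 29.2% and 27.4%. Cholesterol synthesis is the lowest list with a median of -1.95, and the red cell list the highest with 2.09 (0.36 with no filter on dim probes).

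Genes that sense or process double-stranded RNA were separated in both directions. Of 32 RNA sensing and interferon genes kept, 9 were separated downward and 5 upward (background 27.4% and 29.2%). Their median of -0.10 turned to 0.057 without either the control siRNA or the ATRA+DEN array. Oas2, an RNA sensor that interferon induces, was at -1.06 and -1.90 against -0.04 and 0.20, whereas Irf7, which drives interferon genes, was at 0.89 and 1.07 against -1.24 and 0.11. At day 2 the same list had a median of 0.83, with 25 separated upward and 1 downward (32.8% and 21.8%). The control siRNA array was 1.57 and the G0s2 siRNA array 0.83 above the day-2 vehicle array in the median. The DEN array of that day was 0.75, ATRA+DEN 0.48 and ATRA 0.12 above it. The siRNA arrays of day 2 lie on another slide than these. RNA interference genes had 8 of 14 separated downward and 3 upward (background 27.4% and 29.2%), with a median of -0.15. Ago2, the slicing Argonaute, was at 0.94 and 0.69 against 1.71 and 1.46, and Dicer1 at 1.89 and 1.70 against 2.46 and 2.32. None of these genes passed.

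Of 31 cell cycle genes, 13 were separated downward and 6 upward (background 27.4% and 29.2%), and none passed. Their median was -0.20, and -0.024 under normexp background correction. Mcm5, a subunit of the replicative helicase, was at -2.45 and -1.94 against -0.43 and -0.12. E2f8, a repressor of cell cycle genes in polyploid hepatocytes, was at -1.88 and -1.62 against 1.35 and 0.71. Vehicle (1.68) and DEN (0.53) lay near the ATRA arm for E2f8, whereas for Mcm5 (-1.75 and -2.20) they lay near the siRNA arm.

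p53 target genes differed within the ATRA arm more than between the arms. The genes named from this list were chosen after their values were seen. Cdkn1a, the cell cycle inhibitor p21, was at 5.56 on control siRNA, 6.82 on G0s2 siRNA and 6.62 on ATRA+DEN, against 2.84 on ATRA, with DEN at 6.83 and vehicle at 1.96. Phlda3, a repressor of Akt signalling, was at 4.96, 6.03 and 5.89 against -1.02 on ATRA, with DEN at 6.36 and vehicle at -0.59. Ccng1, a cyclin that p53 induces, was at 3.55, 4.26 and 3.62 against 0.78, with DEN at 3.67 and vehicle at 0.75. In these 3 genes both siRNA arrays lay with the arrays titled ATRA+DEN and DEN and away from those titled ATRA and vehicle.

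Over the list, 17 of 29 members had a 2-fold gap between the day-7 arrays titled DEN and ATRA+DEN and those titled vehicle and ATRA, and the siRNA arrays took no part in that choice. In 16 of the 17 (94.1%) both siRNA arrays lay nearer the DEN-titled pair. Over all genes, 183 had such a gap upward and 88 downward, and both siRNA arrays lay nearer the DEN-titled pair in 102 (55.7%) and 34 (38.6%). The p53 genes are part of the 183. In the comparison of the arms, 7 of the 29 were separated upward and 2 downward, below the background of 29.2% and 27.4%, with a median of 0.77. That median was 1.69 without the ATRA+DEN array and -0.13 without the ATRA array. The median ATRA+DEN minus ATRA difference was 1.80. The part of DEN in the siRNA arm was not tested.

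**Figure D5:**
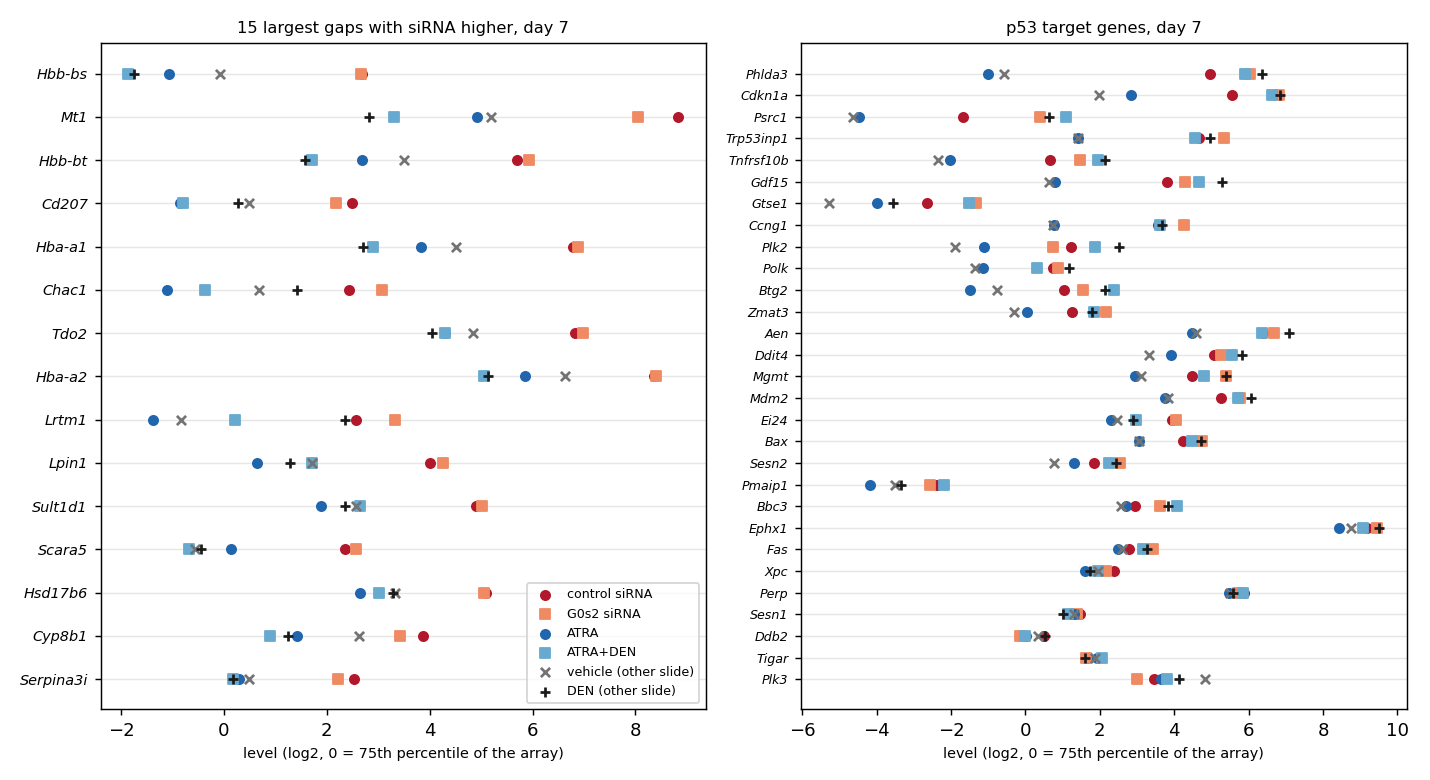
Levels on the 6 arrays of day 7 for the 15 genes with the largest gap upward (left) and for 29 p53 target genes (right, sorted by the siRNA arm's difference from vehicle). On the left both siRNA arrays (red, orange) lie to the right of all others, and on the right most genes place the siRNA, ATRA+DEN and DEN arrays together, for example Cdkn1a between 5.56 and 6.83, against 2.84 on ATRA and 1.96 on vehicle.

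Among the 9 cell type marker lists, Hbb-bs and the hepatocyte marker Tdo2 passed the test and no other gene did. Kupffer cell and macrophage markers had 6 of 20 separated downward and 3 upward (background 27.4% and 29.2%, as for the lists that follow), with summed linear levels of 222.6 and 136.4 in the siRNA arm and 186.3 and 172.8 in the ATRA arm. Clec4f, a lectin of Kupffer cells, was at 3.74 and 2.91 against 4.54 and 4.36, while Lyz2, the macrophage lysozyme, was at 1.16 and -0.43 against -2.02 and -1.70. Sinusoidal endothelium had 8 of 23 separated upward and 4 downward, with sums of 207.9 and 192.5 against 169.6 and 147.4. Stellate cell genes had 9 of 22 separated downward and 4 upward, with sums of 380.8 and 364.2 against 408 and 392.1. Lrat, which is also on the retinoid list, was among those downward. In whole liver, fewer cells of a type and less RNA per cell cannot be told apart.

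The day-2 arrays hold the same 4 treatments on 2 slides. There 227 genes (1.23%) had a 2-fold gap with the siRNA arm higher and 96 (0.518%) with it lower, and 0 passed by limma, with 3493 (18.9%) at an unadjusted p under 0.05. In the same direction at both times, 7 genes were higher, 2.99% of those of day 7 and 3.08% of those of day 2. Lower at both times were 12, or 3.25% and 12.5%. Cyp26a1 was among those with a 2-fold gap in the same direction at both times, with a difference of -5.93 at day 2. Most genes with a 2-fold gap at one time thus had none in the same direction at the other. Over all genes, such gaps were present in 1.26% (higher) and 1.99% (lower) at day 7, and in 1.23% and 0.518% at day 2. Of the 234 higher at day 7, 95 (40.6%) were separated the same way at day 2 and 33 (14.1%) the opposite way. For the 369 lower, the counts were 109 (29.5%) and 76 (20.6%). The background at day 2 was 32.8% upward and 21.8% downward.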

How the data were processed

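Total RNA of liver was hybridised to 1-colour Agilent mouse arrays, 12 arrays in 12 groups of 1. The authors' deposited array files hold an intensity for each spot from which Agilent Feature Extraction had subtracted background, version 10.7.1.1 per the file headers and 9.5.1.1 per the submitters' processing notes. The authors' deposited series table of normalized intensities correlated with the array files at r of at least 0.999 and served as an alternative.

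The processed intensity of 59305 non-control spots was log2 transformed. Spots flagged as outliers were left out, and the other spots of 1 probe were averaged (55681 probes). The 75th percentile over these probes was then subtracted from each array, and the probe with the highest mean stood for its gene. Names came through accession (27235 probes), symbol (3581) or synonym (563), and otherwise from the array file. Arms of 2 arrays were compared with limma 3.58.1 under R 4.3.3 (lmFit and eBayes), adjusted by Benjamini-Hochberg over 18519 genes. P-values measure only the spread among these arrays. Tested on simulated data, with 50 genes shifted at each fold, 0% were recovered at 2-fold, 42% at 4-fold, 72% at 8-fold and 86% at 16-fold, with 7 false calls. The simulated arrays of an arm were replicates, unlike the real ones, so these rates do not give the error of the real calls. The number of arrays limits the precision.

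Named genes were G0s2 and Cyp26a1, the 15 largest gaps in each direction, the 8 largest at-least folds, genes that passed with a 2-fold gap (up to 10 in each direction), separated retinoid genes and up to 4 members of each other list. Names outside this rule, in the distal chromosome 2 window and the p53 and cholesterol lists, were chosen after values were seen. Alas2, Klf1, Slc4a1, Ahsp and Gata1 of the red cell list were also named outside the rule. The members and the 38 lists were chosen with earlier results of these data known. Some members of the lists are counted but not reported here by name. Alternatives were normexp (offset 50), quantile normalization, the authors' table, other filters and probe rules, leaving out each array, and a 12-array fit with slide as a block.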

Additional observations from a re-analysis of the deposited data

Results flagged for a closer look

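Among the genes the text may name, 2 had a gap of at least 2-fold in opposite directions at day 7 and day 2. Mt2 was higher in the siRNA arm by 3.59 at day 7 and lower by 1.94 at day 2 (-1.94, siRNA minus ATRA arm). Thrsp was lower by 1.40 at day 7 (-1.40) and higher by 2.43 at day 2. The interaction of arm and day in limma over the 8 arrays did not pass for either (adjusted p = 0.10 for Mt2 and 0.11 for Thrsp). It passed for 0 of 18519 genes, with a lowest adjusted p of 0.060 and 3416 genes at an unadjusted p under 0.05. At day 2 the arms lie on different slides, so arm and slide cannot be told apart there. Separation in opposite directions at the 2 times, of any size, was present in 42 of the 183 named genes.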

How the results depend on the processing

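Groups have 1 array each, so no count was tested against replicates. No paired analysis was possible because each group of the siRNA and ATRA arms has 1 array and no replicate number joins them. For ATRA at day 2, the DEN pair as a block left 0 genes passed. Of the 55 genes that passed at day 7, normexp gave 620 (45 shared), the filter on all 4 arrays 228 (34 shared), the mean over probes 55 (51 shared), and quantile normalization, the authors' table and no filter 0. Leaving out 1 array gave 0 to 1. The 12-array fits gave 1307 with DEN taken as absent in the siRNA mice and 1116 with DEN taken as present. The cause of these changes was not tested. Genes with a 2-fold gap upward numbered 234, 90 under normexp and 392 to 645 without 1 array, where fewer arrays have to be separated. Those downward numbered 369, 130 under normexp, 569 with no filter, 200 with the filter on all 4 arrays and 570 to 954 without 1 array. At day 2 the 112 genes with a 2-fold gap for ATRA became 33, 288 and 70 under normexp, no filter and the filter on all 4 arrays, and 337 to 449 without 1 array. The 323 between the siRNA and ATRA arms became 109 under normexp, 681 with no filter and 724 to 964 without 1 array, and 9 passed under normexp and 1 with the filter on all 4 arrays. Single-array counts of 1073 (G0s2 siRNA) and 939 (ATRA+DEN) became 237 and 330 under normexp, 3848 and 3781 with no filter, and 496 and 558 with the filter on all 4 arrays. Of the 38 list medians, 16 changed sign under at least 1 setting, among them p53 targets (-0.13 without ATRA), RNA sensing (up to 0.12), Kupffer (up to 0.16), growth hormone (up to 0.15), MHC class II (down to -0.35) and male-biased genes (down to -0.050). The median also changed sign for NKG2D ligands with no filter (0.089) and with the mean over probes (0.046), and for female-biased genes with the filter on all 4 arrays (-0.22). Leaving out 1 array gave medians of -0.14 to 1.15 for female-biased genes (-0.092 without ATRA), -0.27 to 0.083 for thyroid, -0.023 to 0.21 for complement, -0.17 to 0.11 for lymphocyte and -0.050 to 0.87 for cholangiocyte genes. The G0s2 difference ran from -1.36 (without ATRA+DEN) to 0.021 (without ATRA) and was 0.024 with DEN taken as present, and Ctrb1 was at -0.13 with DEN taken as absent. Of the other values for named genes, 1785 kept direction and side of the threshold, 225 gained and 154 lost the call, and 345 of the list medians moved by less than the spread within the arms, 102 by more, and 9 turned sign from a value larger than that spread. The 37 features of distal chromosome 2, an alternative added after seeing the data, kept a 2-fold gap downward in 25 under normexp and in 37 under quantile normalization. Scaling moved the median difference of all genes by under 0.1. Probes near background limit the rest.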
